A study of Mus musculus with 6 samples.

Results

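Prostaglandins are lipid signals that osteoblasts both make and answer to. The 10 genes described here code for the enzymes that make prostaglandin E2 and prostacyclin, for 3 of the receptors of prostaglandin E2, and for the enzyme that inactivates prostaglandins. They were chosen by name, Pla2g4a, Ptgs1, Ptgs2, Ptges, Ptges2, Ptgis, Ptger1, Ptger2, Ptger4 and Hpgd, and each matched 1 of the 54532 rows of the deposited table. Messenger RNA was sequenced from MC3T3-E1 cells, a clonal pre-osteoblast line from mouse skull bone, kept under normal conditions (control) or with glucocorticoid (GC) for 12 hours. Each condition had 3 libraries, described as biological replicates. Which glucocorticoid was used, at what dose, and on which subclone or medium, the labels do not say.

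Prostaglandin synthesis begins when a cytosolic phospholipase frees arachidonic acid from membrane lipids. A cyclooxygenase then converts the acid to prostaglandin H2, and terminal synthases turn that intermediate into prostaglandin E2 or prostacyclin. Prostaglandin E2 acts on bone-forming cells mainly through the receptors EP2 and EP4, which raise cyclic AMP, and it is known both to promote bone formation and to drive bone resorption. Glucocorticoids are known to lower the inducible cyclooxygenase COX-2 in many inflamed tissues.

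The proximal promoters of 4 members are shown so that the letters near their starts can be read beside the values. Both cyclooxygenase genes are included because they catalyse the committed step, Ptges because it had the highest level, and Ptger4 because it was the receptor member with the most reads. Each run holds the 250 bases before the RefSeq start (GRCm38.p6), on the strand of the gene, and capitals mark the motif matches described after the sequences. The runs cover chr1:150099781-150100030 (plus strand) for Ptgs2, chr2:36230176-36230425 (plus) for Ptgs1, chr2:30903298-30903547 (minus) for Ptges and chr15:5244188-5244437 (minus) for Ptger4.
Ptgs2: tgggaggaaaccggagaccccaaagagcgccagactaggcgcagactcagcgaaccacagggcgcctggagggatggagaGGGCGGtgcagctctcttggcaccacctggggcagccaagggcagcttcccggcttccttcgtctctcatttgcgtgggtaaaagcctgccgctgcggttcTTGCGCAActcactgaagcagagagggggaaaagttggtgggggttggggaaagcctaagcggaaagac
Ptgs1: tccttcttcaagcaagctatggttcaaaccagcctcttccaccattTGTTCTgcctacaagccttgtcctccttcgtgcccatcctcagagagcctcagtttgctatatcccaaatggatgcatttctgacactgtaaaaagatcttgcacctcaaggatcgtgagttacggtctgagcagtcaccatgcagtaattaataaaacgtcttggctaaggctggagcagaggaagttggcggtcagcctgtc
Ptges: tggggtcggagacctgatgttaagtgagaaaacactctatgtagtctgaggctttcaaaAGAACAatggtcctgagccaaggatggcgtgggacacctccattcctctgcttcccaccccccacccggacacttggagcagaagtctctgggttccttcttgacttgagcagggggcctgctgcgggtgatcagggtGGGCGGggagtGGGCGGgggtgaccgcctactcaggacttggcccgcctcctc
Ptger4: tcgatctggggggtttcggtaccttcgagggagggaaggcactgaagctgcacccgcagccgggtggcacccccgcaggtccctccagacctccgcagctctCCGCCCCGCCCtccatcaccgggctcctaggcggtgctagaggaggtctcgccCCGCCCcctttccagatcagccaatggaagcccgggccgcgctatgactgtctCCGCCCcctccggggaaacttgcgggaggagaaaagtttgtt
The next 30 bases of interest at Ptgs2 begin at position 5 after the start (chr1:150100035-150100064), and their capitals mark a cyclic AMP response element core that overlaps an E-box.
Ptgs2 site: tcaccactACGTCACGTGgagtccgcttta

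Motifs were searched on both strands from 250 bases before to 50 bases after the start. RefSeq sequences were found for 8 of the 10 members, and shares are given over 32851 windows of the same length. The cyclic AMP response element core TGACGT, read on the other strand, was found at Ptgs2 at positions 13 to 18, and the E-box CACGTG at positions 17 to 22. Of all windows, 7.51% held the former and 7.15% the latter. Ptgs2 also matched the C/EBP motif TTGCNNAA as TTGCGCAA from position -69 to -62, which 10.8% of windows did. Ptger2 matched that motif too, as TTGCTTAA from position 40 to 47. The GC box GGGCGG, in 35.7% of windows, occurred at Ptgs2, Ptges, Ptger4 and Hpgd, with 2 matches at Ptges and 4 at Ptger4, where a pair overlaps by 1 base. The full glucocorticoid response palindrome, AGAACA and TGTTCT with 3 bases between them, was in none of the members' windows and in 0.00913% of all windows. A single arm of it, AGAACA, was in 19% of all windows and in those of Ptges, Ptgs1 and Ptger2 and at 1 of the 2 starts of Pla2g4a. Ptges2 held an E-box. The letters TATAAA of the TATA box, found in 13.6% of windows, were at positions 5 to 10 after the start of Hpgd. At 1 start of Pla2g4a they were read on the other strand, from position -200 to -195. The AP-1 motif TGANTCA, in 7.81% of windows, matched no member. A match is a string of letters, and binding was not measured. The RefSeq starts of Ptges and of 1 Pla2g4a window lie inside the longer gene models used for counting lengths.

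The deposited values were FPKM, read counts scaled by exon length and by library depth. Scaled back, they gave whole reads, called recovered reads here, with 14445341 to 16123917 per library in the rows that came out whole. Genes that reached 1 FPKM in 3 or more libraries, 11730 rows, were tested by limma-trend on log2(FPKM + 1), a scale that understates the change of genes with low values. Nothing but the design text says that replicates were separate cultures, so p-values measure the spread between these libraries. Of the members, 5 passed that filter: Pla2g4a, Ptgs1, Ptgs2, Ptges and Ptges2. Glucocorticoid-induced genes served as a check on the labels: Tsc22d3, Sgk1, Fkbp5 and Per1 all rose, with log2 fold changes of 2.47, 2.33, 1.19 and 1.33. Of 8 osteoblast lineage markers 6 passed the filter, and their FPKM summed to 3650 to 3845 in control and 3113 to 3356 in GC, while Alpl and Bglap were below it. Nearly all of the sum was Col1a1, Col1a2 and Spp1, and by limma-trend 3 of the 6 had positive and 3 negative log2 fold changes. Alpl had 2 reads in GC replicate 3 and none elsewhere, and Bglap had 1 to 15 reads in each library. Ibsp had 0.120, 0.708 and 0.338 FPKM in control against 1.37, 2.06 and 1.43 FPKM with GC. It reached the filter only through its GC libraries, so the direction of its value has no weight. Its adjusted p by limma-trend was 0.0174 with the replicate block and 0.0684 without it, and neither is support for a rise. Endothelial, adipocyte and epithelial markers summed to at most 0.593 FPKM in any library. Of 6 macrophage markers Adgre1 was listed at 0 throughout and Ptprc, Itgam and Csf1r were at most 0.194 FPKM. Csf1r had 0.0509, 0.0521 and 0.0391 FPKM in control against 0.0723, 0.194 and 0.0831 FPKM with GC. Cd68 had 0.247, 0.304 and 0.354 FPKM in control against 0.703, 0.235 and 0.876 FPKM with GC, with overlapping groups. The macrophage sum was 7.32 to 11.2 FPKM in control and 15.1 to 21.9 in GC, nearly all of it Lyz2 (adjusted p by limma-trend of 0.0507, and of 0.00304 with the replicate block), and its part in other results was not tested.

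No gene of prostaglandin E2 synthesis changed past the threshold after 12 hours of glucocorticoid. Of the 5 tested members 0 passed by limma-trend at an adjusted p under 0.05, where 1.94% of all tested genes did (1.08% higher and 0.853% lower in GC). With the replicate number as a block it was also 0 of 5, against 8.96% of all tested genes (3.96% higher and 5% lower). None had an unadjusted p under 0.05, against 19.3% of all tested genes, and limma-voom on the recovered reads also called 0 of 5, against 3.13% of its rows. Control and GC libraries overlapped for all 5, whereas 25.6% of tested genes had groups that did not overlap (10.8% with GC above and 14.8% with GC below). The fitted log2 fold changes lay between -0.14 and 0.10.

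Pla2g4a (ENSMUSG00000056220.14, chr1:149829618-149961290, minus strand, in mm10 coordinates as for all members) encodes cytosolic phospholipase A2 alpha, which releases arachidonic acid. Replicates 1 to 3, in that order here and for each gene that follows, had 5.72, 6.74 and 7.33 FPKM under control conditions against 6.01, 7.01 and 8.35 FPKM with GC, from 588 to 920 reads. In both groups replicate 1 was lowest and replicate 3 highest, and the groups overlapped. GC minus control was 0.06, 0.05 and 0.17 by replicate number on the log2 scale. GC against control gave a log2 fold change of 0.09 ± 0.14 (SE), with a 95% interval from -0.23 to 0.41 and an adjusted p by limma-trend of 0.786.

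Ptgs1 (ENSMUSG00000047250.13, chr2:36230426-36252272, plus strand) encodes the constitutive cyclooxygenase COX-1. Control libraries stood at 24.3, 22.7 and 20.8 FPKM and GC libraries at 24.9, 24.4 and 23.6 FPKM. Only control replicate 1 lay among the GC values. The log2 fold change of 0.10 ± 0.10 (SE) had a 95% interval from -0.13 to 0.33 and an adjusted p by limma-trend of 0.628. Each GC library exceeded the control library of the same number, by 0.03, 0.10 and 0.17 on the log2 scale.

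Ptgs2 (ENSMUSG00000032487.8, chr1:150100031-150108227, plus strand) encodes the inducible cyclooxygenase COX-2. Its control values were 4.62, 6.13 and 6.21 FPKM and its GC values 4.73, 5.24 and 6.41 FPKM, from 340 to 506 reads. Again the replicate 1 libraries were the lowest of each group, and both groups covered nearly the same range. The fit gave -0.04 ± 0.15 (SE) as the log2 fold change, and its 95% interval from -0.38 to 0.29 runs from 0.770 to 1.23 times control on the FPKM + 1 scale (adjusted p by limma-trend of 0.914). Changes within these bounds, in either direction, are not excluded with 3 libraries a group. The interval is not adjusted for the number of genes and is no limit of detection, so larger changes could also go uncalled.

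COX-1 RNA exceeded COX-2 RNA per length in every library. Ptgs2 made up 16.0%, 21.3% and 23.0% of the summed FPKM of both cyclooxygenases in control and 16.0%, 17.7% and 21.4% in GC. This share does not depend on the scaling between libraries. Its means were 20.1% ± 3.66 and 18.3% ± 2.76 (SD, n = 3 each), and a two-sided exact permutation test gave p = 0.7, where 0.1 is the smallest p that 20 splits allow.

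Ptges (ENSMUSG00000050737.13, chr2:30889471-30929863, minus strand) encodes the inducible microsomal prostaglandin E synthase, which acts after the cyclooxygenases. It was the highest of the 10 members, with control libraries at 55.3, 48.8 and 46.4 FPKM and GC libraries at 55.5, 47.2 and 46.7 FPKM, from 2871 to 3707 reads. Replicate 1 was the highest of each group, and both groups covered nearly the same range. For GC against control the log2 fold change was -0.01 ± 0.12 (SE), with a 95% interval from -0.29 to 0.27 and an adjusted p by limma-trend of 0.973.

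Ptges2 (ENSMUSG00000026820.5, chr2:32395896-32405772, plus strand) encodes another membrane-associated prostaglandin E synthase. Control libraries had 5.98, 5.02 and 4.73 FPKM and GC libraries 5.86, 4.10 and 4.09 FPKM. GC replicates 2 and 3 were the lowest values, and GC replicate 1 lay inside the control range. By replicate number, GC minus control was -0.03, -0.24 and -0.17 on the log2 scale. The log2 fold change of -0.14 ± 0.15 (SE) had a 95% interval from -0.49 to 0.20 and an adjusted p by limma-trend of 0.655.

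**Figure D1:**
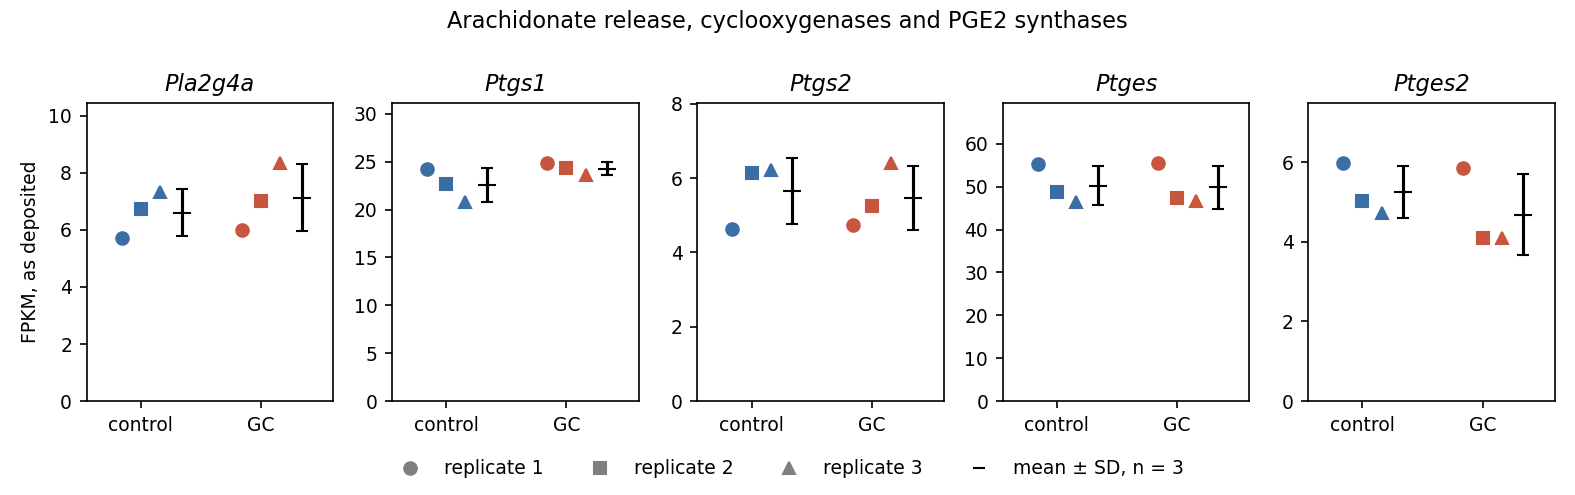
Deposited FPKM of 5 genes from arachidonate release to prostaglandin E2 in each library (y axis, from 0, a scale per panel; x axis, group), with symbols for the replicate number and the mean ± SD (n = 3) in black. In each panel the GC points overlap the control points, and in Ptges the replicate 1 libraries of both groups are highest, at 55.3 and 55.5 FPKM.

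Prostacyclin synthase and the EP receptors were at much lower levels, and Ptgis and Ptger4 had lower values in each GC library than in any control library, as 13.7% of rows with at least 10 reads in 3 libraries did. Ptgis (ENSMUSG00000017969.13, chr2:167191805-167240604, minus strand), which encodes prostacyclin synthase, had 1.16, 1.14 and 0.768 FPKM in the control libraries against 0.528, 0.184 and 0.407 FPKM with GC. These values stood for 48, 46 and 31 reads in control and 23, 8 and 18 reads in GC. GC replicate 2 was the lowest and GC replicate 1 the closest to control, and the GC mean was 36.4% of the control mean.

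Ptgis did not reach 1 FPKM in 3 libraries and so was outside the limma-trend fit. A limma-voom fit to recovered reads of 12729 rows with at least 10 reads in at least 3 libraries was added after the data were seen. It gave Ptgis a log2 fold change of -1.52 ± 0.43 (SE), with a 95% interval from -2.47 to -0.58 and an adjusted p of 0.0853. With the replicate number as a block Ptgis passed in that fit, with a log2 fold change of -1.44 and an adjusted p of 0.0234, and 9.99% of rows passed in that direction. Without the block 1.44% of rows passed as lower in GC. Leaving out 1 library at a time, without the block, gave adjusted p-values from 0.0867 to 0.277 and log2 fold changes from -1.82 to -1.11, the latter without GC replicate 2. Exons of another gene on the opposite strand overlap 6.08% of its exon length. In bulk RNA a lower value from fewer expressing cells and one from less RNA per cell cannot be told apart.

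Ptger4 (ENSMUSG00000039942.15, chr15:5206661-5244187, minus strand) encodes EP4, a receptor coupled to cyclic AMP. Its control values were 0.730, 0.833 and 0.756 FPKM and its GC values 0.567, 0.587 and 0.410 FPKM, from 78, 87 and 79 reads and 64, 66 and 47 reads. The groups did not overlap, GC replicate 3 was the lowest, and the GC mean was 67.4% of the control mean. By limma-voom the log2 fold change was -0.58 ± 0.23 (SE), with a 95% interval from -1.10 to -0.06, an unadjusted p of 0.0334 and an adjusted p of 0.210, so Ptger4 did not pass. An unadjusted p under 0.05 was found for 20% of all rows in that fit. Exons of Gm15937 on the opposite strand overlap 15.3% of the exon length of Ptger4, so part of its reads is uncertain.

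Ptger1 (ENSMUSG00000019464.6, chr8:83666678-83672753, plus strand) encodes EP1, a receptor coupled to calcium. Only 10, 15 and 10 reads were found in control and 8, 6 and 8 in GC, or 0.114, 0.175 and 0.116 FPKM against 0.0863, 0.0649 and 0.0850 FPKM. Ptger1 entered the limma-voom fit only through its control libraries, so the direction of its value has no weight, and its adjusted p was 0.438. The strand setting of the counting is not given in the sources used here, so that its few reads are uncertain.

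RNA of EP2, the other receptor coupled to cyclic AMP, was close to the limit of detection. Ptger2 (ENSMUSG00000037759.6, chr14:44988195-45003820, plus strand) had 1 read in control replicate 2, 1 read in GC replicate 3 and none elsewhere, and 3 reads would have been 0.0335 to 0.0368 FPKM. Hpgd (ENSMUSG00000031613.9, chr8:56294585-56321043, plus strand), which encodes the dehydrogenase that inactivates prostaglandins, was listed at 0 in all 6 libraries, where 3 reads would have been 0.103 to 0.113 FPKM. A difference between groups was not detectable at this depth for either gene.

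**Figure D2:**
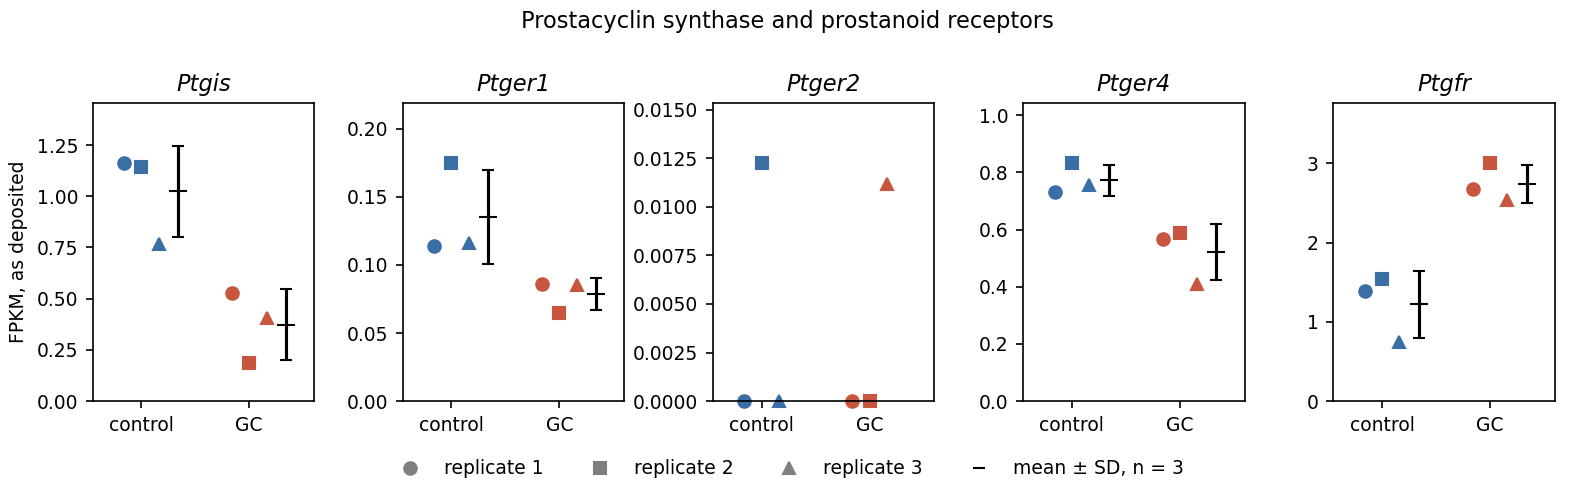
Deposited FPKM of prostacyclin synthase, 3 receptors of prostaglandin E2 and the prostaglandin F receptor gene Ptgfr in each library (y axis, from 0, a scale per panel; x axis, group), with the mean ± SD (n = 3) in black except for Ptger2. Ptgis and Ptger4 lie lower in all GC libraries, as did 13.7% of rows with at least 10 reads in 3 libraries. Ptgfr lies higher (2.54 to 3.01 against 0.741 to 1.54 FPKM), as did 10.8% of tested genes. Ptger1 passed the filter on reads only through its control libraries, so its direction has no weight. Ptger2 has a single read in each of 2 libraries.

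Per length, the members formed a steep order in control cells. Ptges averaged 50.2 ± 4.56 FPKM and Ptgs1 22.6 ± 1.75 FPKM (SD, n = 3 each), and their ranges did not meet. Pla2g4a (6.60 ± 0.815 FPKM), Ptgs2 (5.65 ± 0.896 FPKM) and Ptges2 (5.24 ± 0.653 FPKM) followed with ranges that overlapped from each to the next. Ptgis (1.02 ± 0.222 FPKM) and Ptger4 (0.773 ± 0.0538 FPKM) overlapped each other but lay apart from Ptges2 above and Ptger1 below. Ptger2 and Hpgd came last. Over all 6 libraries, too, neighbours in this order that overlapped in control overlapped, and those that lay apart lay apart.

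**Figure D3:**
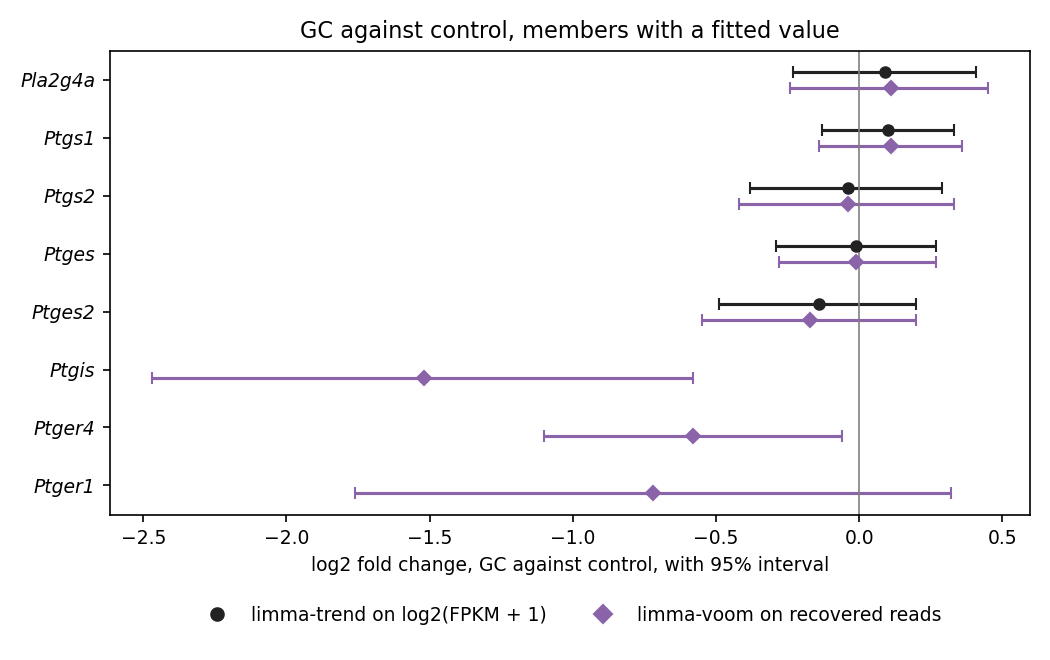
Log2 fold change of GC against control (x axis) with its 95% interval for 8 members (y axis), by limma-trend on log2(FPKM + 1) in black and by limma-voom on rows with at least 10 reads in 3 libraries in violet. The intervals of the 5 synthesis genes include 0, and those of Ptgis (-2.47 to -0.58) and Ptger4 (-1.10 to -0.06) do not, although neither passed after adjustment in the fit drawn.

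Genes around the members were taken from 7 lists with 89 genes, of which 49 were tested by limma-trend. Of these, 4 genes were called higher, 2 lower and 43 not at all, where 1.94% of all tested genes were called. Among the 4 higher genes 3 came from the list of regulators, and 1 of them, Tsc22d3, had already served as a check on the labels. The lists were chosen with earlier results of these data known, so the count is no measure of an excess in the pathway. With the replicate block 5 were called higher and 5 lower, where 8.96% of all tested genes were called. The 49 genes had a median log2 fold change of -0.09 beside -0.01 over all tested genes. The calls rest on all 6 libraries: of the 6 genes, Tsc22d3 kept its call without any 1 library, Cebpd lost it in 4 of 6 omissions and the other 4 genes in 5 of 6, with adjusted p-values by limma-trend from 0.0503 to 0.208.

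In the list of phospholipases and arachidonate handling 11 of 24 genes were tested, 1 rose, 1 fell and 9 did not pass, beside 1.94% of all tested genes called. Pla2g15, a lysosomal phospholipase A2, rose from 5.83 ± 0.322 to 8.93 ± 0.487 FPKM (SD, n = 3 each). Its log2 fold change was 0.54 ± 0.10 (SE), and limma-trend gave an adjusted p of 0.0374. With the libraries rescaled to the same FPKM sum its adjusted p was 0.0581. Dagla encodes a diacylglycerol lipase that makes the endocannabinoid 2-arachidonoylglycerol, itself a source of arachidonic acid. Dagla stood at 4.78, 5.45 and 5.02 FPKM in the control libraries against 1.82, 2.28 and 0.969 FPKM with GC, a log2 fold change of -1.21 ± 0.19 (SE) whose adjusted p by limma-trend was 0.0286. It fell, with every GC library under every control library, as in 14.8% of tested genes. The secreted phospholipase genes Pla2g2a, Pla2g2d, Pla2g2f, Pla2g5 and Pla2g12b, and Pla2g4d, 6 of the 24, were listed at 0 in all libraries. With the replicate block Acsl3, which activates arachidonic acid and other fatty acids, also fell (adjusted p by limma-trend of 0.0273, 0.0832 without the block), from 6.57 ± 0.483 to 4.53 ± 0.445 FPKM. With that block 5% of all tested genes were called lower.

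Among the other prostanoid receptors 1 of 6 passed the filter, Ptgfr, which encodes the receptor of prostaglandin F2 alpha. The control libraries had 1.39, 1.54 and 0.741 FPKM and the GC libraries 2.68, 3.01 and 2.54 FPKM, from 151, 164 and 79 reads and 308, 345 and 297 reads. Each GC library lay above each control library, as for 10.8% of tested genes. By limma-trend it missed the threshold, at a log2 fold change of 0.77 ± 0.17 (SE) and an adjusted p of 0.0679. With the replicate block Ptgfr passed (adjusted p by limma-trend of 0.0215), where 3.96% of all tested genes were called higher. By limma-voom on recovered reads Ptgfr passed too, with a log2 fold change of 1.23 ± 0.24 (SE) and an adjusted p of 0.0300. There 1.67% of rows passed as higher. With no filter its adjusted p by limma-trend was 0.207. In the added limma-voom fit Ptgfr passed with all libraries (adjusted p of 0.0256), where 183 of the 10766 genes also tested by limma-trend were called higher. In that fit Ptgfr lost the call without control replicate 1, 2 or 3 or GC replicate 3, at adjusted p-values of 0.0712, 0.0517, 0.0770 and 0.103. Exons of Gm43618 on the opposite strand overlap 4.85% of its exon length. Ptger3 and Ptgdr were listed at 0 in all libraries, and Ptgir, the prostacyclin receptor gene, had 0.0522 to 0.248 FPKM, with overlapping groups.

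Of 5 tested genes of prostaglandin transport and breakdown 1 fell and 4 did not pass, beside 0.853% of all tested genes called lower. The gene that fell is Ptgfrn, whose product is known to hinder ligand binding by the prostaglandin F receptor and takes no part in transport or breakdown. Its libraries had 26.0, 24.4 and 22.5 FPKM under control conditions against 13.7, 15.0 and 10.8 FPKM with GC. Every GC library lay below every control library, as in 14.8% of tested genes. Ptgfrn had a log2 fold change of -0.84 ± 0.13 (SE), and its adjusted p by limma-trend was 0.0296. The prostaglandin reductase genes Ptgr1 and Ptgr2, which act in breakdown, lay above every control library in each GC library, as did 10.8% of tested genes. Ptgr1 had 20.8, 19.4 and 17.5 FPKM under control conditions against 32.2, 21.3 and 26.4 FPKM with GC, and Ptgr2 had 1.29, 1.28 and 1.15 FPKM against 1.58, 1.52 and 1.67 FPKM. Neither passed by limma-trend (adjusted p of 0.188 and 0.414), while Ptgr1 passed in the added limma-voom fit with the replicate block (adjusted p of 0.0114). In that fit 793 of the 10766 genes also tested by limma-trend were called higher. The prostaglandin transporter gene Slco2a1 had 0.0654 to 0.132 FPKM.

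The other terminal synthases had 2 tested genes, neither of them called by either tool, and neither was under 0.05 unadjusted. Ptges3, a cytosolic prostaglandin E synthase that is also the HSP90 co-chaperone p23, had control libraries at 90.1, 100.3 and 99.1 FPKM and GC libraries at 109, 88.0 and 108 FPKM. Its reads could be shared with processed pseudogene copies. Akr1b3, an aldo-keto reductase with prostaglandin F synthase activity, had 14.3 to 15.8 FPKM in control libraries and 13.0 to 19.1 FPKM with GC. Of the 12 leukotriene and lipoxygenase genes only Lta4h, a leukotriene A4 hydrolase, was tested, at 17.5 to 20.2 FPKM in control libraries and 16.8 to 20.9 FPKM with GC (adjusted p by limma-trend of 0.950).

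Among 15 tested regulators of prostaglandin genes, 3 were called higher and 12 were not called, where 1.08% of all tested genes were called higher. The 3 that rose were Tsc22d3, Dusp1 and Cebpd, of which Tsc22d3 had already served as a check on the labels. Tsc22d3, the gene of the anti-inflammatory protein GILZ, went from 27.0 to 29.9 FPKM in control libraries to 145.7 to 170.7 FPKM with GC (adjusted p by limma-trend of 0.000371). Dusp1, a phosphatase of MAP kinases, had 5.87 to 6.20 FPKM and 9.51 to 9.96 FPKM (adjusted p by limma-trend of 0.0239). Cebpd, a transcription factor of the C/EBP family, had 3.43 to 4.64 FPKM and 7.53 to 9.52 FPKM (adjusted p by limma-trend of 0.0271). Nr3c1, the gene of the glucocorticoid receptor itself, had 19.2, 23.9 and 23.4 FPKM in the control libraries against 13.0, 18.8 and 17.6 FPKM with GC. It was called lower with the replicate block (adjusted p by limma-trend of 0.0305), as were 5% of all tested genes, and not without it (0.204). The median log2 fold change of the list was 0.02.

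None of 14 tested genes of cyclic AMP signalling downstream of EP2 and EP4 passed by limma-trend or by limma-voom. Unadjusted, 2 were under 0.05 by limma-trend, where 19.3% of all tested genes were. Their log2 fold changes were negative for 13 of 14, with a median of -0.18, where 6136 of 11730 tested genes were negative and the median was -0.01. In 5 of the 14 every GC library lay below every control library, as in 14.8% of tested genes. Prkar1a and Prkaca, subunits of protein kinase A, had 92.6 to 104.7 and 44.5 to 47.8 FPKM in the control libraries, and 79.9 to 104.6 and 40.3 to 45.5 FPKM with GC. With the replicate block 1 of the 14 fell, Adcy6, an adenylyl cyclase (adjusted p by limma-trend of 0.0475, 0.144 without the block). With that block 5% of all tested genes were called lower.

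**Figure D4:**
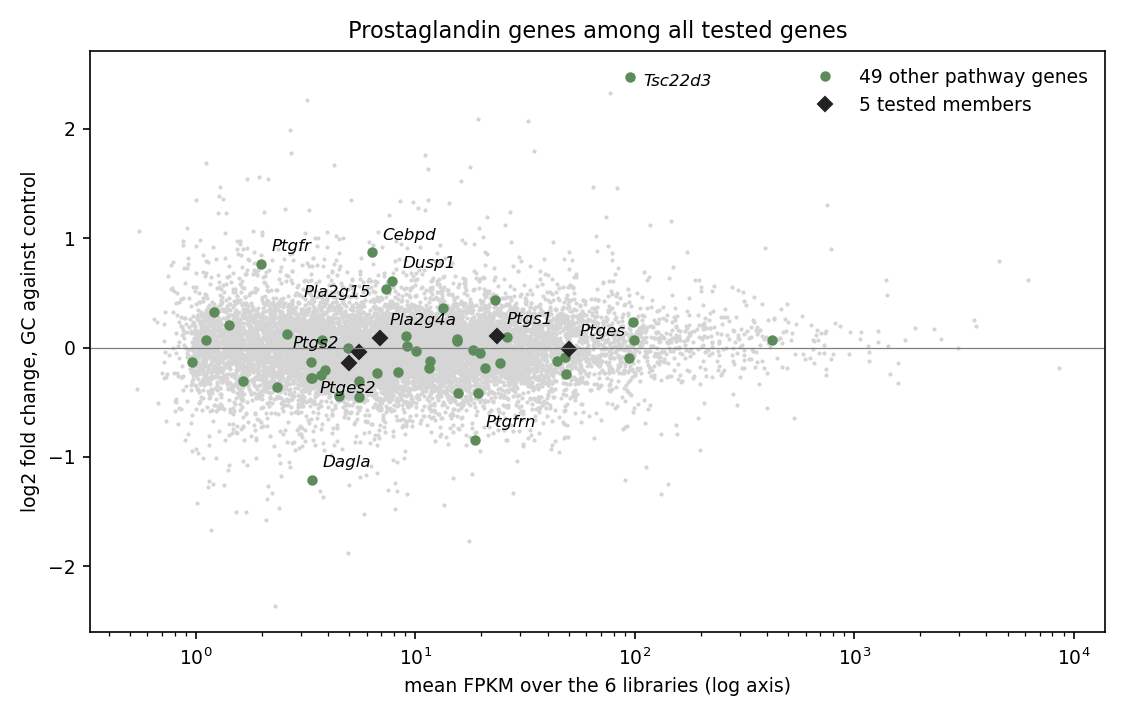
Log2 fold change of GC against control (y axis) against the mean FPKM over the 6 libraries (x axis, log scale) for all tested genes in grey, 49 other pathway genes in green and 5 tested members as black diamonds. The members lie between -0.14 and 0.10, among the bulk of tested genes, while Tsc22d3 stands at 2.47 and Dagla at -1.21.

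Replicate 1 differed from replicates 2 and 3 in the same direction in both groups for all 5 synthesis genes, and by more than the groups differed for each of them but Ptgs1. Relative to the mean of replicates 2 and 3, replicate 1 of Ptgs2 differed by -0.35 in control and -0.25 in GC (log2 scale), and that of Pla2g4a by -0.26 and -0.30. For Ptges it was higher by 0.21 and 0.24, for Ptges2 by 0.25 and 0.43, and for Ptgs1 by 0.15 and 0.05. G and C bases made up 40.0% of the longest transcript of Ptgs2 and 44.1% of that of Pla2g4a, against 51.0%, 53.1% and 54.7% for Ptgs1, Ptges and Ptges2.

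Across 11645 tested genes the same difference ran with base composition. In the lowest quintile of G and C content the median difference of replicate 1 was -0.17 in control and -0.25 in GC, and in the highest quintile it was 0.07 and 0.16. Across genes, which are not independent replicates, Pearson's r between base composition and the difference was 0.27 in control and 0.36 in GC. The part of base composition in the members' values was not tested. With the replicate block the 95% interval of the log2 fold change was -0.26 to 0.18 for Ptgs2 and -0.21 to 0.19 for Ptges.

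**Figure D5:**
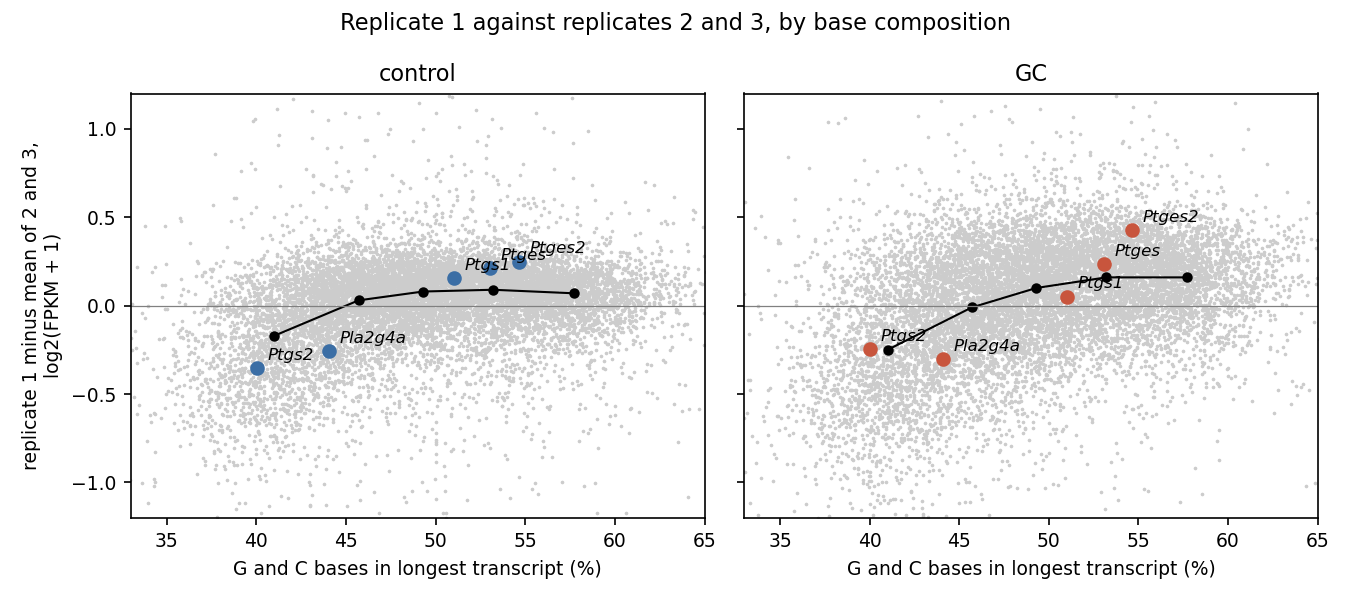
Replicate 1 minus the mean of replicates 2 and 3 in log2(FPKM + 1) (y axis) against the percentage of G and C bases in the longest transcript (x axis) for tested genes in grey, within the range of the axes, and for 5 members in colour. Black points are medians of gene quintiles; Ptgs2 and Pla2g4a lie below 0 and Ptgs1, Ptges and Ptges2 above 0 in both groups.

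The tested member with the lowest p was Ptgs1, and the 3 genes with the most similar profile over the 6 libraries were AF357399, Zfyve1 and Gm10335. Pearson's r on log2(FPKM + 1) was 0.9936, 0.9934 and 0.9899, the highest of 11725 genes compared. With so few libraries such values are a description only.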

How the data were processed

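Total RNA was taken with TRIzol and libraries were prepared with a NEBNext Ultra kit, per the labels' protocols. HISAT2, HTSeq, DESeq2 and the build mm10 are named in the submitters' processing notes; the sources used here give no versions, annotation or strand setting. The authors deposited FPKM under headers that name no unit. Multiplying by GENCODE M21 exon lengths and a depth per library gave reads whole within 0.0001 in every library for 25583 of 26444 rows (96.7%), those with a length, a single use of the name and a value above 0.

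Groups came from the sample titles. The test was limma 3.58.1 under R 4.3.3 (trend and robust empirical Bayes) on log2(FPKM + 1), two-sided, with Benjamini-Hochberg adjustment over 11730 rows. Alternatives were a pseudocount of 0.1, no filter, a common FPKM sum, a replicate block, each library left out, and limma-voom on recovered reads; limma-voom at 10 reads in 3 libraries was added after the data were seen. As the deposited values are not counts, no negative binomial model was fitted. Tested on simulated data, limma-trend made somewhat more false calls than its threshold implies. Replicate numbers from the titles were taken to pair libraries because deviations from group means correlated for each same-numbered pair (0.511, 0.248 and 0.383). These correlations come from the same values that the block fits use, so they are no independent support for a pairing. The labels do not say what a number shares. Members and lists were chosen with earlier results of these data known. The rule for names took all members, up to 6 called genes per list or else its 2 highest, 4 glucocorticoid-induced genes, and the 3 genes most like the member with the lowest p. Acsl3, Adcy6, Nr3c1, Ptgr1, Ptgr2, the phospholipases at 0, Ptger3, Ptgdr, Ptgir, Slco2a1 and single markers were named after their values were seen.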

Additional observations from a re-analysis of the deposited data

How the results depend on the processing

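Over all tested genes the main fit gave 127 higher and 100 lower genes. No filter gave 15 and 2, the replicate block 465 and 586, limma-voom on recovered reads 185 and 161, and leaving out 1 library 14 to 465 higher and 2 to 762 lower. Of the members 0 passed under each alternative except the added limma-voom fit at 10 reads with the replicate block, where 1, Ptgis, was lower. For the other pathway genes, 4 higher and 2 lower became 1 and 0 with no filter, and 5 fell with the replicate block. Leaving out 1 library gave 1 to 6 higher and 0 to 5 lower. The cause of these shifts was not tested.

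Members with fold changes near 0 changed sign in some settings. Ptges went from -0.01 to 0.00 by limma-voom on recovered reads. Leaving out 1 library gave -0.09 to 0.06 for Ptges, -0.16 to 0.04 for Ptgs2 and -0.02 to 0.19 for Pla2g4a by limma-trend, and -0.08 to 0.06, -0.19 to 0.06 and -0.01 to 0.23 in the added limma-voom fit, where Ptgs2 was at 0.02 and 0.03 without control replicates 2 and 3 and Ptges at 0.02 without GC replicate 2. The lowest adjusted p of any tested member over 19 alternatives was 0.246, for Ptges2 by limma-voom without 1 library. The Ptgs2 share of cyclooxygenase FPKM differed by -1.75 percentage points between groups, by -3.80 to -0.294 without 1 library, and by -1.92 in recovered reads.

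Depth limited Ptger1, Ptger2 and Hpgd, and for Ptgis and Ptger4 the reads per library (8 to 48 and 47 to 87) set wide intervals.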

Other observations

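A pair of noncoding RNA genes near Ptgs2, on the opposite strand and with no exon shared with it, had lower values in each GC library than in any control library. The same held for 13.7% of rows with at least 10 reads in 3 libraries. They were chosen after their values were seen. Ptgs2os had 0.761, 0.853 and 0.822 FPKM in the control libraries against 0.503, 0.559 and 0.495 FPKM with GC, from 53, 58 and 56 reads and 37, 41 and 37 reads. Ptgs2os2 had 61, 75 and 39 reads in control and 31, 30 and 34 in GC. Neither passed by limma-trend (Ptgs2os was under the filter) or without the block: by limma-voom at 10 reads the log2 fold changes were -0.64 and -0.93 with adjusted p-values of 0.202 and 0.156, and with the replicate block the adjusted p-values were 0.127 and 0.0421, so that Ptgs2os2 passed in that fit alone, where 9.99% of rows passed as lower.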
